A study of Mus musculus with 6 samples.

Results

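The genes described here are the matrix proteases of the mouse and their inhibitors. They were taken from the expression table as every symbol made of Mmp, Timp, Adam, Adamts or Adamtsl followed by a number, which gave 83 of 34465 symbols. RNA was measured in primary brown (BAT) and white (WAT) cells that had been isolated as preadipocytes from the interscapular and the inguinal fat of several young BL6 mice and differentiated in culture. Both cell types were induced in the same way with insulin, dexamethasone, IBMX and rosiglitazone, and no group carried a genetic change. The groups were BAT cells on Days 0, 4 and 6 and WAT cells on Days 0, 4 and 6, where Day 0 is the preadipocyte that had not been induced, and each group had 1 library. With no replicate, a difference between 2 libraries has no replicate check.

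Matrix metalloproteinases (Mmp) are zinc enzymes that cut collagens, proteoglycans and other proteins around the cell, and some of them sit in the cell membrane. Tissue inhibitors of metalloproteinases (Timp) bind the active site of these enzymes. Adam proteins are membrane proteases that release the outer part of other membrane proteins, Adamts proteins are secreted relatives that trim procollagens and cut proteoglycans, and Adamtsl proteins share the ancillary domains of Adamts but have no protease domain. Preadipocytes lie in a matrix rich in fibrillar collagen, and the matrix is remodelled as they fill with lipid.

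Levels are given as FPKM, the number of fragments scaled to transcript length and to the mapped fragments of the library, as the authors deposited it, and differences as log2(FPKM + 1), a scale on which changes of low genes are understated. The estimated depth was 8.99 M fragments for WAT on Day 0 and 17.5 to 21.2 M for the other libraries. The labelled cell types were checked against marker genes. On Days 0, 4 and 6 the summed FPKM of 8 adipocyte markers was 1187, 44813 and 30562 in BAT, with 1990, 47104 and 26591 in WAT. Most of this sum after induction was *Fabp4* in both cell types. From Day 4 to Day 6 *Fabp4* and *Cidec* were lower in both, while *Pparg*, *Lep*, *Retn* and *Lpl* were higher in both. *Adipoq* was higher in BAT and lower in WAT, and *Plin1* the reverse. The sum of 6 brown markers was 45.6, 315 and 138 in BAT and 8.93, 41 and 18.1 in WAT, although most of it after induction was *Cidea*, a lipid droplet protein, with 0, 284 and 115 FPKM in BAT and 2.43, 34.1 and 9.84 FPKM in WAT. *Ucp1*, the uncoupling protein, had 0, 9.92 and 3.65 FPKM in BAT and 1.49, 0.477 and 0.175 FPKM in WAT, so it was higher in WAT on Day 0. *Zic1*, a marker of interscapular brown cells, had 14.5, 3.27 and 2.39 FPKM in BAT and 0.0852, 0.0181 and 0 FPKM in WAT. Markers of preadipocytes and fibroblasts summed to 8530, 738 and 922 in BAT and to 3259, 1434 and 1941 in WAT, so this sum was lower after induction in both cell types, as were many of the genes below. Most of it in BAT on Day 0 was *Col1a1* (4004 FPKM) and *Col3a1* (3376 FPKM), which are also counted as matrix substrates below. On Day 6 against Day 0, 7 of the 8 markers were at least 2-fold lower in BAT and 3 in WAT, where 25.3% and 14% of all genes were. In WAT *Col3a1* had 698, 587 and 779 FPKM and *Pdgfra* 27.6, 11.4 and 28.6 FPKM, so these 2 were not lower on Day 6. Of 5 mural cell markers only *Acta2*, smooth muscle actin, which activated fibroblasts also make, was called, with 183, 2.79 and 37.9 FPKM in BAT and 589, 6.82 and 54.5 FPKM in WAT, and the other 4 stayed at 5.37 FPKM or below. Endothelial markers summed to 26.5, 13.4 and 13 in BAT and to 59.2, 12.3 and 14.4 in WAT. The part of these cell types in the results was not tested. Whether fewer cells of a type or less RNA per cell lies behind a lower value cannot be told apart in bulk RNA.

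The metalloproteases share a zinc-binding site of 3 histidines with a glutamate that takes part in catalysis. This site decides which Adam genes can act as proteases. It is shown here for some abundant Mmp, Adamts and Adam genes that matched it, and for the 3 Adam genes without it that reached 1 FPKM in some library. The stretches below were read from the coding sequences of GENCODE M1 on NCBIM37, the Ensembl name of mm9. Capitals mark the codons of the first histidine, the glutamate, the second histidine, the glycine and the third histidine, or the codons at those places.
Mmp2: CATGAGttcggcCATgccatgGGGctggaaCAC
Mmp3: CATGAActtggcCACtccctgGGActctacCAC
Mmp11: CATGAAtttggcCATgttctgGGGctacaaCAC
Mmp14: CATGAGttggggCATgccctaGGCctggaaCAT
Adamts2: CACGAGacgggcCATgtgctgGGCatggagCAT
Adamts5: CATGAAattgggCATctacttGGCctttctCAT
Adam9: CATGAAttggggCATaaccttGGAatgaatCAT
Adam12: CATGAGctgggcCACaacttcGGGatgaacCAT
Adam15: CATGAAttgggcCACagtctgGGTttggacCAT
Adam19: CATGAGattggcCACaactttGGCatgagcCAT
Adam22: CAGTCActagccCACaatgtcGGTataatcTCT
Adam23: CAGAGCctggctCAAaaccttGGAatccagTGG
Adam32: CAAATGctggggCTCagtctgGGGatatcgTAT
The first 10 stretches hold all of these codons. *Adam22*, *Adam23* and *Adam32*, which were placed by alignment, lack the first histidine, the glutamate and the third histidine. Of the 32 Adam genes, 19 held the site and 13 did not. The search, which also required the glycine, found no match in *Adamts1*, *Adamts4*, *Adamts8*, *Adamts9*, *Adamts15* and *Adamts20*. These are not shown, and the search was not used to judge whether they are proteases.

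Of the 83 genes, 47 reached 1 FPKM in some library, and only these entered a test. They were 15 of 23 Mmp genes, 4 of 4 Timp genes, 11 of 32 Adam genes, 12 of 19 Adamts genes and 5 of 5 Adamtsl genes. Of the 36 left out, 13 were listed at 0 in every library, and the other 23 stayed below the minimum. *Mmp16* and *Mmp10*, each with a highest FPKM of 1.13, lay just inside the minimum, and *Adam11* (0.962) and *Adam4* (0.758) just outside. Of the 47, 25 were at 1 FPKM or more in all 6 libraries and 6 only on Day 0, so a fall of those 6 was partly set by the minimum. On Days 0, 4 and 6 the genes at 1 FPKM or more numbered 40, 33 and 34 in BAT, with 39, 33 and 38 in WAT.

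Most of these genes were lower after induction. Days 4 and 6 were tested against Day 0 with limma, in a model of the 6 libraries that took cell type and day as additive effects, and p-values were adjusted over all 14413 genes. At an adjusted p under 0.05, 19 of the 47 genes fell (40.4%) and 2 rose (4.26%), while 10.6% of all genes fell and 11.3% rose. The median change was -1.42 on the log2 scale for the 47 genes and -0.13 for all genes. The genes that fell were *Mmp2*, *Mmp3*, *Mmp11*, *Mmp14*, *Mmp23*, *Timp1*, *Timp2*, *Timp3*, *Adamts1*, *Adamts2*, *Adamts5*, *Adamts7*, *Adamts14*, *Adamtsl5*, *Adam12*, *Adam17*, *Adam19*, *Adam23* and *Adam33*. *Timp4* and *Adamtsl2* rose. The residual of this model holds noise and any response that differed between the cell types, because days are not replicate cultures. Without BAT on Day 4 or without WAT on Day 4, 5 genes fell (*Timp1*, *Timp2*, *Mmp11*, *Mmp23* and *Adamts7* both times) while 0.992% and 1.19% of all genes fell. Without BAT on Day 6, 12 of the 47 fell and 5.06% of all genes. Without WAT on Day 0, the shallowest library, or without BAT on Day 0, only 1 library stands for Day 0. The change then rests on the Day 0 of 1 cell type and the residual holds no variation on Day 0. No count of these fits is therefore used as a result. The 21 called genes kept their direction in both of these fits. The count of genes that rose was 1 without BAT on Day 4, BAT on Day 6 or WAT on Day 6, and 0 without WAT on Day 4.

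**Figure D1:**
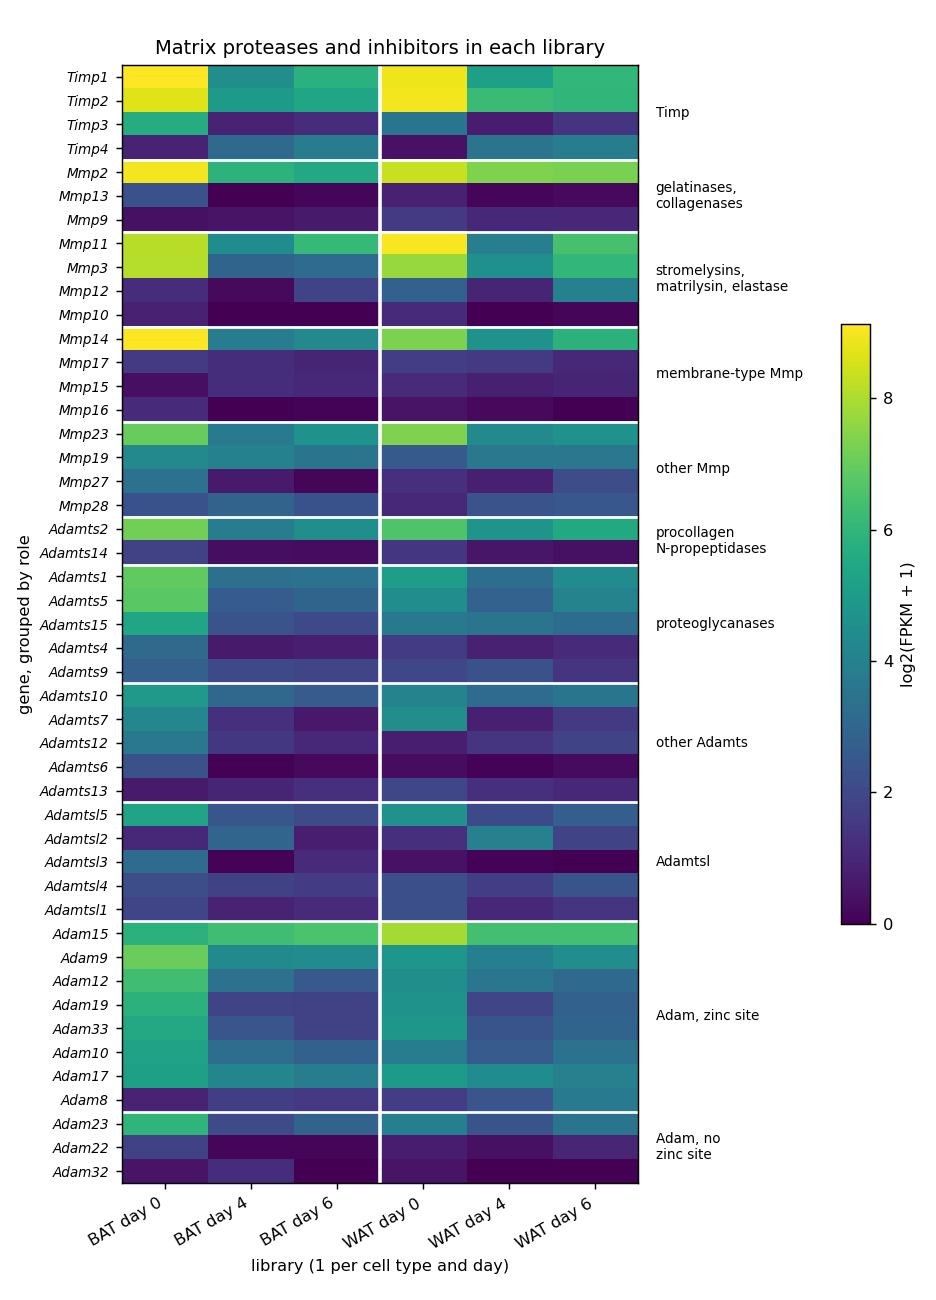
Level of the 47 genes in each library, as log2(FPKM + 1) by color, with genes in rows by role and by their highest FPKM, and BAT on Days 0, 4 and 6 left of WAT on the same days. The Day 0 columns are brightest for most rows, and *Timp4*, which had 13.7 FPKM on Day 6 against 0.811 FPKM on Day 0 in BAT, runs the other way.

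Single libraries showed the same split by a 2-fold rule, which means a difference of at least 1 on the log2 scale and involves no test. In BAT on Day 4 against Day 0, 32 of the 47 genes were lower and 2 higher, while 23.2% and 17.1% of all genes were. In WAT on Day 4, 21 were lower and 4 higher, against 19% and 15% of all genes. In BAT on Day 6, 30 were lower and 1 higher, where 25.3% and 16.1% of all genes were. In WAT on Day 6, 17 were lower and 6 higher (*Timp4*, *Mmp12*, *Mmp19*, *Mmp28*, *Adam8*, *Adamts12*), where 14% and 18.5% of all genes were. The median change to Day 6 was -2.19 in BAT and -0.56 in WAT for the 47 genes, and -0.21 and 0.10 for all genes. The summed FPKM of BAT on Day 0 was 525714, below the 740823 to 842757 of the other libraries, and after scaling to TPM the medians to Day 6 were -2.95 in BAT and -0.57 in WAT, and -0.80 and 0.16 for all genes.

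Of the 4 inhibitors, *Timp1*, *Timp2* and *Timp3* fell and *Timp4* rose. *Timp1* (chrX:20447292-20451861, plus strand, mm9), a soluble inhibitor, had 557, 21.5 and 55.2 FPKM on Days 0, 4 and 6 in BAT, against 473, 34.7 and 65.3 FPKM in WAT. On Day 4 it was 25.9 times lower than on Day 0 in BAT and 13.6 times lower in WAT, and both Day 0 libraries stood above all 4 later ones. Its change on Days 4 and 6 was -3.63 ± 0.29 (SE, limma adjusted p = 0.00151). *Timp2* (chr11:118162383-118217054, minus strand), which both inhibits Mmp2 and helps Mmp14 to activate it, had 409, 30.2 and 40.6 FPKM in BAT and 495, 74 and 62.5 FPKM in WAT. Its change was -3.18 ± 0.30 (limma adjusted p = 0.0021), and WAT stood above BAT in all 3 pairs of days. *Timp4* (chr6:115195634-115201867, minus strand), the inhibitor known for its expression in fat and heart, had 0.811, 7.76 and 13.7 FPKM in BAT and 0.353, 10.5 and 13.4 FPKM in WAT. On Day 6 it was 16.9 times its Day 0 level in BAT and 38.1 times in WAT, with a change of 2.95 ± 0.32 (limma adjusted p = 0.00292). The call of *Timp4* was lost without WAT on Day 4 (adjusted p = 0.0565; 0.000828 to 0.0565 over the 16 alternatives).

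*Timp3* (chr10:85763117-85812251, plus strand), the inhibitor that stays bound to the matrix and also blocks Adam and Adamts proteases, had 49.5, 0.898 and 1.25 FPKM in BAT and 10.6, 0.656 and 1.66 FPKM in WAT. Its change was -3.54 ± 0.53 (limma adjusted p = 0.00693). Its exons overlap those of *Syn3* on the other strand, which was listed at 28.4, 1.77 and 3.14 FPKM in BAT and 47.5, 2.21 and 3.1 FPKM in WAT. How the counting used strand is not given in the sources used here, so the reads of both genes cannot be told apart and the level of *Timp3* is uncertain. Their sum, tried after the overlap had been seen, was 77.9, 2.67 and 4.39 FPKM in BAT and 58.1, 2.87 and 4.75 FPKM in WAT, and it changed by -3.90 ± 0.28 (limma adjusted p = 0.00112). *Timp3* was 4.66 times higher in BAT than in WAT on Day 0, while *Syn3* was lower in BAT. *Timp4* lies within *Syn2*, also on the other strand but with no shared exon, and *Syn2* had 0.327, 5.55 and 9.14 FPKM in BAT and 0.145, 5.88 and 7.41 FPKM in WAT.

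**Figure D2:**
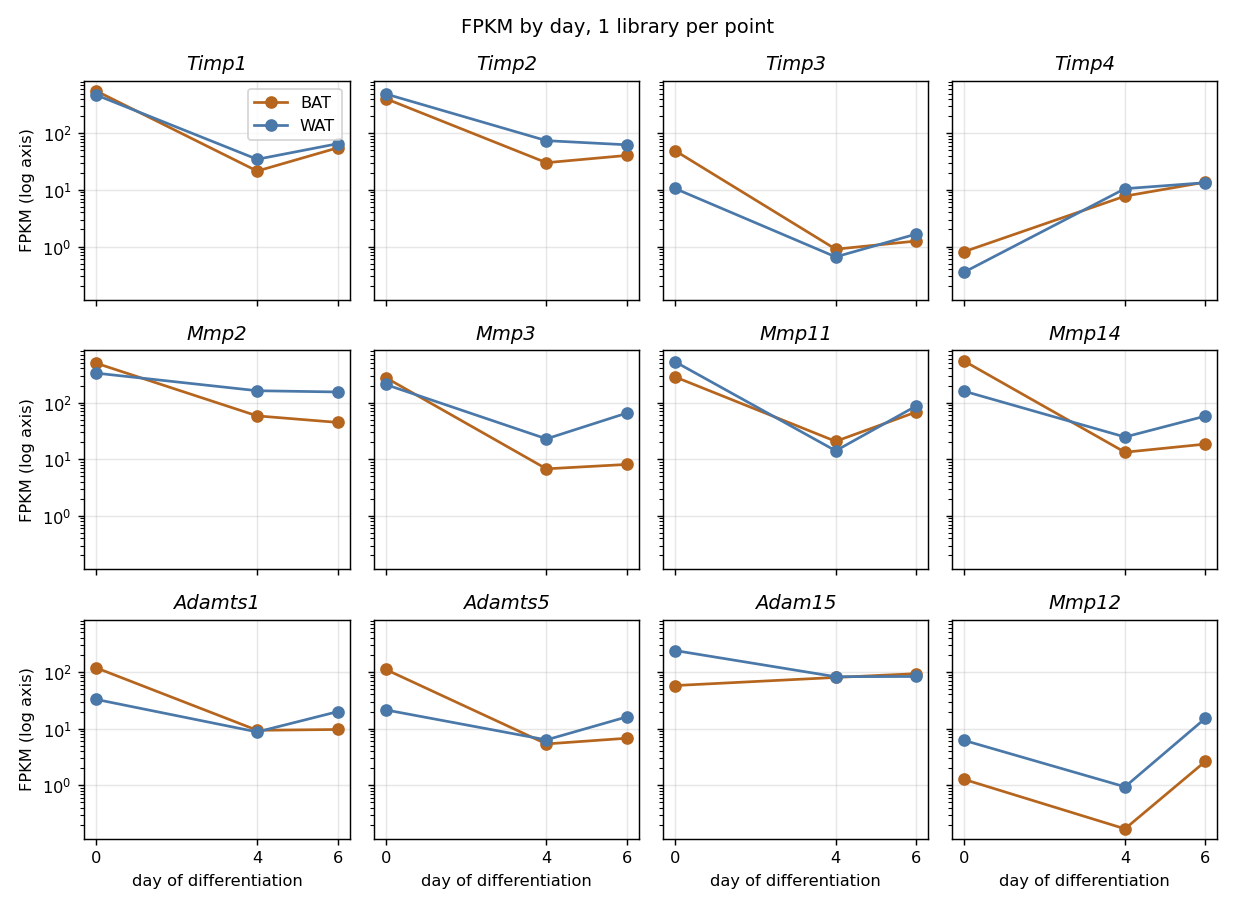
FPKM of 12 genes on a log axis by day of differentiation in BAT and WAT, with 1 library per point. *Timp1*, *Timp2*, *Mmp3* and *Mmp14* are highest on Day 0 in both cell types, *Timp4* is lowest there, and *Adam15* has 57.5 FPKM for BAT against 239 FPKM for WAT on Day 0 but 93.2 against 83.2 FPKM on Day 6.

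*Mmp2* (chr8:95351227-95377316), the gelatinase that cuts denatured and basement membrane collagen, had the highest FPKM of the 83 genes in WAT after induction. It had 495, 58.3 and 44.7 FPKM in BAT and 331, 162 and 154 FPKM in WAT. On Day 6 it was 11.1 times lower than on Day 0 in BAT and 2.15 times lower in WAT, so WAT stood 3.43 times above BAT on Day 6 and below BAT on Day 0. Across both cell types the change was -2.16 ± 0.51 (limma adjusted p = 0.0301). The other gelatinase, *Mmp9*, stayed between 0.318 and 1.94 FPKM in all libraries. Of the collagenases, *Mmp13* was highest in BAT on Day 0 at 3.92 FPKM and at most 0.163 FPKM after induction, *Mmp8* reached 0.743 FPKM and *Mmp1a* and *Mmp1b* were at or near 0.

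Stromelysin-1 degrades proteoglycans, fibronectin and basement membrane proteins. *Mmp3*, stromelysin-1, had 277, 6.77 and 8.1 FPKM in BAT and 209, 22.9 and 65.4 FPKM in WAT. Both cell types were high on Day 0, and only WAT was then more than 2-fold higher on Day 6 than on Day 4. Its change was -3.72 ± 0.62 (limma adjusted p = 0.00969). *Mmp11* (chr10:75385967-75400678), stromelysin-3, which furin activates inside the cell, had 285, 20.7 and 68.2 FPKM in BAT and 528, 14.1 and 87 FPKM in WAT. It was lowest on Day 4 in both cell types and more than 2-fold higher on Day 6 in each, and its change was -3.37 ± 0.34 (limma adjusted p = 0.00254). It shares exons on the same strand with *Gm867*, which had 2.78, 9.53 and 16.3 FPKM in BAT and 2.51, 3.41 and 13.7 FPKM in WAT. *Mmp12*, the elastase of macrophages, had 1.27, 0.17 and 2.64 FPKM in BAT and 6.19, 0.938 and 15.2 FPKM in WAT. It was lowest on Day 4 and highest on Day 6 in both cell types, and WAT was 4.89, 5.51 and 5.75 times above BAT on Days 0, 4 and 6.

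The macrophage markers, 12 of 12 of which passed the minimum, summed to 26.7, 63.4 and 89.6 FPKM on Days 0, 4 and 6 in BAT and to 108, 172 and 338 FPKM in WAT. By limma, 7 of the 12 rose and 0 fell on Days 4 and 6, where 11.3% of all genes rose and 10.6% fell. *Tyrobp* and *Aif1* were listed at 0 in BAT on Day 0. Most of the sum in every library was *Lyz2*, with 16.7, 38.1 and 54.4 FPKM in BAT and 65, 108 and 193 FPKM in WAT. Not every marker followed the sum. In BAT *Cd14* had 5.53, 1.35 and 2.87 FPKM and *Csf1r* 1.32, 1.23 and 0.67 FPKM. In WAT *Aif1* had 2.29, 2.22 and 2.12 FPKM. *Adam8*, a protease known from leukocytes, had 0.875, 2.25 and 1.87 FPKM in BAT and 2.13, 4.35 and 12.4 FPKM in WAT, 6.63 times higher in WAT on Day 6. *Mmp12* and *Adam8* were thus higher in WAT on every day, as was the macrophage sum. Per unit of that sum *Adam8* lay between 1.97% and 3.66% in all libraries, while *Mmp12* on Day 4 lay at 0.269% in BAT and 0.545% in WAT, and otherwise between 2.94% and 5.71% on Days 0 and 6. The part of macrophages in these values was not tested.

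*Mmp3* and *Mmp12* belong to a cluster of 10 Mmp genes over 427 kb of chromosome 9 (7272514 to 7699585, mm9), in the order *Mmp13*, *Mmp12*, *Mmp1b*, *Mmp3*, *Mmp1a*, *Mmp10*, *Mmp8*, *Mmp27*, *Mmp20*, *Mmp7*. Only 5 passed the minimum, and *Mmp1a*, *Mmp7* and *Mmp20* were listed at 0 in every library. *Mmp3* made up 94.3%, 90.3% and 73.7% of the cluster's summed FPKM in BAT and 95.4%, 92.7% and 77.5% in WAT. *Mmp27* had 9.83, 0.56 and 0.13 FPKM in BAT and 1.4, 0.732 and 3.43 FPKM in WAT, so that it was higher in BAT on Day 0 and higher in WAT on Day 6. *Mmp10*, stromelysin-2, was listed at 0.8, 0 and 0 FPKM in BAT and 1.13, 0 and 0.0995 FPKM in WAT. Neighbours in one cluster thus had different courses.

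The promoters of this cluster are shown because several share 2 short elements whatever their level. Promoters from 250 bases before to 50 bases after the start were taken from RefSeq on GRCm38.p6, where 52 of the 83 symbols had one. They were searched for TGANTCA, the AP-1 element with its middle base left free, a pattern read the same on both strands. TATAAA had to follow it on the gene's strand with at most 60 bases between them. The pair was found in 8 of the 12 promoters of the cluster, 1 each in 8 of its 10 genes, in 0 of 45 promoters of other members and in 0.216% of 32851 promoters, and TGANTCA alone was in 7.81% of them. The 60 bases were chosen after the cluster had been seen. In *Mmp20*, whose window is not shown, the middle base was A, where the windows below have G or C. Within a window the elements do not overlap, TATAAA alone was in 8.32% of promoters, and a match is no evidence of binding. Both elements are in capitals, and the coordinates below are of GRCm38.p6.
Mmp3 (chr9:7445768-7445830, plus strand): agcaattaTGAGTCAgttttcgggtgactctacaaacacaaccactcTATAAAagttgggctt
Mmp12 (chr9:7347322-7347393, plus strand): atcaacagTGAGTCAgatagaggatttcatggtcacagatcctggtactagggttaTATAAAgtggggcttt
Mmp13 (chr9:7272471-7272513, plus strand): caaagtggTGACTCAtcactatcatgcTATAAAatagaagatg
Mmp10 (chr9:7502271-7502328, plus strand): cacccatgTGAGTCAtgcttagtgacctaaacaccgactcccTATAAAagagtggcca
Mmp7 (chr9:7692019-7692079, plus strand): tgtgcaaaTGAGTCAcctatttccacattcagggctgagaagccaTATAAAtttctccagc
*Mmp3* at 277 FPKM in BAT on Day 0 and *Mmp7*, which was listed at 0 throughout, held the same pair. *Mmp8* and *Mmp27* held no such pair in this window, nor did a further promoter each of *Mmp7* and *Mmp12*, and in the window of *Mmp12* the TATAAA begins 4 bases after the annotated start.

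The membrane-type enzymes were led by *Mmp14* (chr14:55050441-55060095), the collagenase of the cell surface that also activates Mmp2. It had 541, 13.3 and 18.5 FPKM in BAT and 159, 24.7 and 57.8 FPKM in WAT. BAT was 3.4 times above WAT on Day 0 and WAT 3.13 times above BAT on Day 6, and from Day 0 to Day 6 the level was 29.2 times lower in BAT and 2.75 times lower in WAT. Its change was -3.53 ± 0.65 (limma adjusted p = 0.0136). The FPKM of *Timp2* was 0.756, 2.27 and 2.19 times that of *Mmp14* in BAT and 3.11, 2.99 and 1.08 times in WAT, so the ratio was higher after induction in BAT and lower on Day 6 in WAT. *Mmp15*, *Mmp16* and *Mmp17* reached 1.29, 1.13 and 2.17 FPKM at most, and *Mmp24* and *Mmp25* were at or near 0.

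Among the remaining Mmp genes, *Mmp23* had 126, 12.9 and 25 FPKM in BAT and 164, 19.5 and 24.9 FPKM in WAT. Both cell types were alike in course, and the change was -2.79 ± 0.25 (limma adjusted p = 0.00205). *Mmp19*, an enzyme of basement membrane proteins, had 18.7, 15.1 and 10.5 FPKM in BAT and 4.96, 11.7 and 11.2 FPKM in WAT. It was lower in BAT and higher in WAT on Days 4 and 6 than on Day 0, although with the trend on transcript length removed BAT was 0.25 higher on Day 4, and its exons overlap those of *1110012D08Rik* on the other strand. *Mmp28*, also called epilysin, had 3.96, 6.43 and 3.97 FPKM in BAT and 1.02, 4.03 and 4.58 FPKM in WAT, 4.5 times higher in WAT on Day 6 than on Day 0.

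Of the 3 procollagen N-propeptidases, which cut the ends from fibrillar procollagens, 2 passed the minimum and fell, where 10.6% of all genes fell. *Adamts2* had 145, 13.6 and 22.5 FPKM in BAT and 96.1, 25.2 and 45.3 FPKM in WAT, with a change of -2.23 ± 0.38 (limma adjusted p = 0.0107). *Adamts14* had 2.45, 0.28 and 0.227 FPKM in BAT and 1.74, 0.479 and 0.313 FPKM in WAT, with a change of -1.22 ± 0.32 (limma adjusted p = 0.0425). It passed the minimum through Day 0 alone, and its call held in 7 of 15 alternatives. *Adamts3* stayed at 0.701 FPKM or below.

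Of the 7 proteoglycanases, enzymes that cut versican and aggrecan, 5 passed the minimum and 2 fell, where 10.6% of all genes fell. Their median Day 6 minus Day 0 difference was -3.34 in BAT and -0.47 in WAT, against -0.21 and 0.10 for all genes. *Adamts1* and *Adamts5* lie 55.1 kb apart on chromosome 16 (85794072 to 85803358 and 85858415 to 85901370, both on the minus strand) and had similar courses. *Adamts1* had 118, 9.33 and 9.64 FPKM in BAT and 32.7, 8.73 and 19.9 FPKM in WAT. *Adamts5* had 111, 5.36 and 6.76 FPKM in BAT and 21.4, 6.32 and 16.1 FPKM in WAT. BAT was 3.6 times above WAT for *Adamts1* and 5.2 times for *Adamts5* on Day 0, and WAT was 2.06 and 2.38 times above BAT on Day 6. The changes were -2.37 ± 0.54 (limma adjusted p = 0.0271) and -2.50 ± 0.67 (limma adjusted p = 0.0434). *Adamts15* had 40, 4.1 and 3.04 FPKM in BAT and 11.9, 10.3 and 8.3 FPKM in WAT, and did not pass the test (-1.75 ± 0.63, limma adjusted p = 0.0972). *Adamts4* and *Adamts9* reached 7.88 and 6.03 FPKM, both in BAT on Day 0, and *Adamts8* and *Adamts20* stayed at 0.128 FPKM or below.

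The other Adamts genes had lower levels. *Adamts7*, which cuts cartilage oligomeric matrix protein, had 17.6, 1.34 and 0.558 FPKM in BAT and 21.5, 0.765 and 1.91 FPKM in WAT. Its change was -3.30 ± 0.38 (limma adjusted p = 0.0033), and *Tbc1d2b*, whose exons overlap it on the other strand, had 71.9, 2.7 and 4.3 FPKM in BAT and 21.7, 3.53 and 7.6 FPKM in WAT. *Adamts12*, which also cuts that protein, had 11.5, 1.79 and 1.06 FPKM in BAT and 0.703, 1.58 and 2.68 FPKM in WAT, so BAT was higher on Day 0 and WAT on Day 6. *Adamts10*, a protein of fibrillin microfibrils, had 29.6, 7.37 and 5.08 FPKM in BAT and 16.1, 8.17 and 10.6 FPKM in WAT and just missed the threshold (-1.42 ± 0.40, limma adjusted p = 0.0515). *Adamts6* reached 3.81 FPKM in BAT on Day 0, and *Adamts13*, the protease of von Willebrand factor, reached 2.85 FPKM in WAT on Day 0.

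The Adamtsl genes, which encode matrix proteins with no protease domain, went different ways. *Adamtsl2* (chr2:26934899-26964501), which binds fibrillin and the latent TGF-β complex, had 1.04, 6.78 and 0.717 FPKM in BAT and 1.35, 14.8 and 2.62 FPKM in WAT. It stood out on Day 4 alone, at 6.5 times the Day 0 level in BAT and 11 times in WAT, and on Day 6 it was 9.45 and 5.65 times below Day 4. Its change on Days 4 and 6 together was 1.26 ± 0.35 (limma adjusted p = 0.0479), a call that held in 6 of 15 alternatives. *Adamtsl5* had 39.4, 4.38 and 3.26 FPKM in BAT and 23.5, 3.18 and 5.7 FPKM in WAT, and fell by 2.64 ± 0.37 (limma adjusted p = 0.00552). *Adamtsl3* had 8.07, 0.074 and 1.17 FPKM in BAT and 0.372, 0.0563 and 0 FPKM in WAT, highest in BAT on Day 0. *Adamtsl1* and *Adamtsl4* stayed between 0.817 and 4.12 FPKM.

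Of the Adam genes that hold the zinc site, 8 of 19 passed the minimum and 4 fell, where 10.6% of all genes fell. *Adam19*, a sheddase of neuregulin, had 57, 2.65 and 2.39 FPKM in BAT and 24.1, 2.76 and 6.09 FPKM in WAT, with a change of -3.16 ± 0.48 (limma adjusted p = 0.00736). *Adam33* had 44.3, 4.32 and 2.5 FPKM in BAT and 27.7, 4.2 and 6.62 FPKM in WAT, with a change of -2.79 ± 0.41 (limma adjusted p = 0.00663). *Adam12*, known from muscle and fat precursors, had 79.7, 9.51 and 4.89 FPKM in BAT and 22.2, 10.9 and 7.78 FPKM in WAT, with a change of -2.27 ± 0.50 (limma adjusted p = 0.0246). *Adam19* and *Adam12* were at least 2-fold higher in BAT than in WAT on Day 0. *Adam17*, which sheds TNF and EGF receptor ligands, had 35.7, 17.2 and 13.4 FPKM in BAT and 30.4, 20.6 and 14.6 FPKM in WAT. Its change was -0.98 ± 0.25 (limma adjusted p = 0.0397) and held in 7 of 16 alternatives, and its exons overlap those of *Iah1* on the other strand.

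*Adam9* and *Adam10* did not pass the test. *Adam9* had 131, 19.1 and 20.3 FPKM in BAT and 26.8, 14.2 and 21.1 FPKM in WAT, so BAT stood 4.87 times above WAT on Day 0 and at the same level on Day 6 (change -1.64 ± 0.48, limma adjusted p = 0.0581). *Adam10*, which sheds Notch, had 37.1, 8.53 and 6.07 FPKM in BAT and 13.4, 5.22 and 9.82 FPKM in WAT (change -1.51 ± 0.44, limma adjusted p = 0.0541). *Adam15* took another course. It had 57.5, 80 and 93.2 FPKM in BAT and 239, 82.4 and 83.2 FPKM in WAT, which made it the highest Adam gene in every library but BAT on Day 0. It was 2.87 times lower in WAT on Day 6 than on Day 0 and 1.62 times higher in BAT, though after scaling to TPM the BAT change was 0.02. Of the genes without the site, *Adam23*, a neuronal receptor of LGI proteins, had 61.8, 3.33 and 6.45 FPKM in BAT and 14.5, 4.21 and 10.4 FPKM in WAT, with a change of -2.23 ± 0.56 (limma adjusted p = 0.0362). *Adam22* reached 2.4 FPKM and *Adam32* 1.26 FPKM, and the other 10 stayed at 0.962 FPKM or below.

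The sums of all 5 families were lower on Days 4 and 6 than on Day 0 in both cell types. The Mmp genes summed to 1767, 137 and 185 FPKM in BAT and 1413, 264 and 426 FPKM in WAT, and the Timp genes to 1016, 60.4 and 111 FPKM in BAT and 979, 120 and 143 FPKM in WAT. Timp FPKM per Mmp FPKM was 0.575, 0.44 and 0.6 in BAT and 0.693, 0.453 and 0.335 in WAT. Inhibitors and proteases were therefore lower together, and this ratio was higher in BAT than in WAT on Day 6 only. Within the Timp sum, *Timp4* took 0.0798%, 12.9% and 12.4% in BAT and 0.036%, 8.72% and 9.4% in WAT. Within the Mmp sum, *Mmp14* led in BAT on Day 0 with 30.6%, *Mmp2* on Day 4 with 42.5% and *Mmp11* on Day 6 with 37%, while in WAT *Mmp11* led on Day 0 with 37.4% and *Mmp2* on Days 4 and 6 with 61.2% and 36%. The share of the 83 genes in all FPKM was 0.731%, 0.0553% and 0.0608% in BAT, with 0.361%, 0.0779% and 0.108% in WAT.

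**Figure D3:**
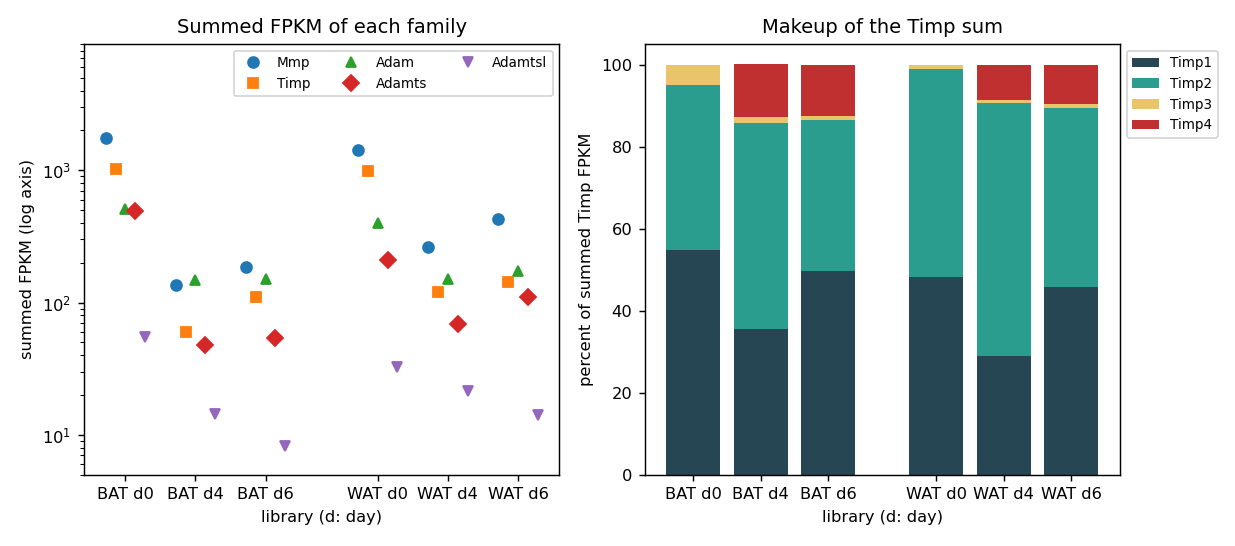
Left, summed FPKM of each family on a log axis in each library; right, the share of each inhibitor in the Timp sum in percent. The Mmp sum on Day 6 is 185 for BAT and 426 for WAT, and *Timp4* makes up 12.4% of the Timp sum in BAT and 9.4% in WAT.

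The decrease by Day 6 was deeper in BAT. From Day 0 to Day 6 the change was lower in BAT than in WAT for 39 of the 47 genes (83%), *Adam32* and *Adamtsl1* by a negligible amount, where 61.2% of all genes had a lower change in BAT, and the median difference between the cell types was -1.48 for the 47 genes and -0.34 for all genes. After median-ratio scaling it was 35 genes (74.5%) against 49.3% of all genes, after scaling to TPM 43 genes (91.5%) against 77.9%, and with the length trend removed 34 genes (72.3%) against 48.2%. The widest gaps belonged to *Mmp27*, *Adamts12*, *Adamts5*, *Mmp14* and *Mmp3*, all of which were higher in BAT than in WAT on Day 0, a level that enters the difference itself. The Day 6 minus Day 0 difference of *Mmp3* was -4.93 in BAT and -1.66 in WAT, that of *Mmp14* -4.80 in BAT and -1.45 in WAT, and that of *Adamts5* -3.86 in BAT and -0.39 in WAT. For *Mmp27* it was -3.26 in BAT and 0.88 in WAT. *Timp1* lay closer to equal change, with -3.31 in BAT and -2.84 in WAT, as did *Timp2*, with -3.30 in BAT and -2.96 in WAT. *Mmp11* and *Mmp23* were among the 8 genes on the other side, with -2.05 and -2.29 in BAT and -2.59 and -2.67 in WAT. With 1 library per group the difference between cell types was not tested.

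**Figure D4:**
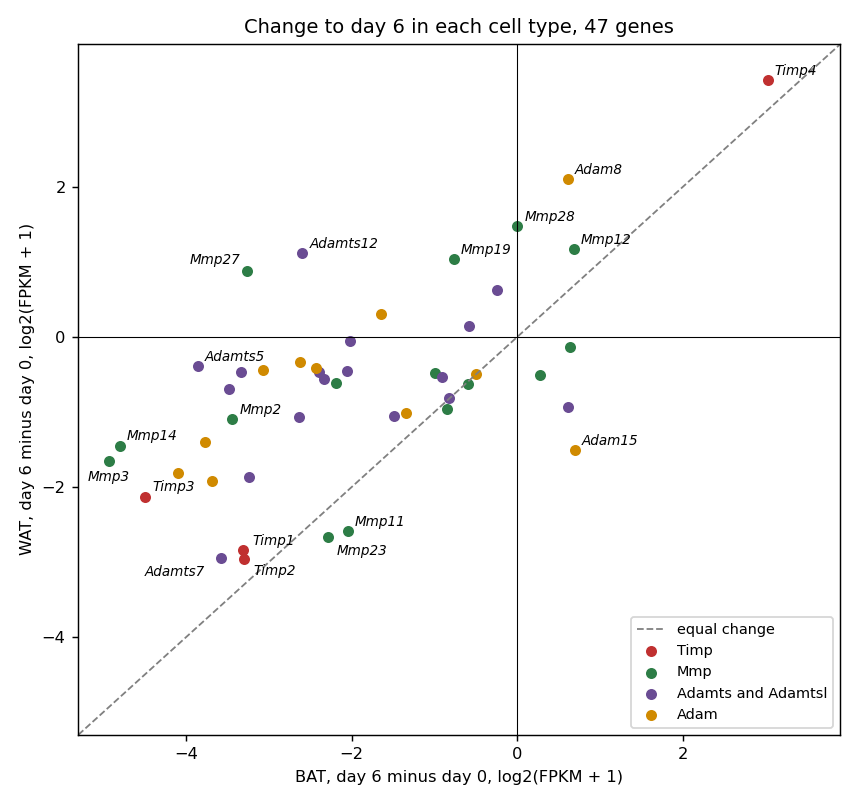
Change on the log2(FPKM + 1) scale between Day 0 and Day 6 in BAT (horizontal axis) and in WAT (vertical axis) for 47 genes, colored by family, with a dashed line of equal change. Most points lie above the line, 39 of 47, and *Timp4* at 3.02 in BAT and 3.42 in WAT stands apart at the upper right.

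Between the cell types no gene passed limma across days. At an adjusted p under 0.05, 0 of the 47 genes were higher and 0 lower in BAT than in WAT, the same as the 0% of all genes in either direction, and 4 of the 47 and 815 of all genes had an unadjusted p under 0.05. The differences were not the same on each day. On Day 0, 19 of the 47 were at least 2-fold higher in BAT and 4 lower, where 20.7% and 13% of all genes were. The 19 included *Mmp14*, *Mmp19*, *Mmp27*, *Adamts1*, *Adamts5*, *Adamts12*, *Adam9*, *Adam10*, *Adam12*, *Adam19*, *Adam23* and *Timp3*, and the 4 were *Adam15*, *Adamts13*, *Mmp9* and *Mmp12*. With the length trend removed the counts were 14 higher (29.8%) and 7 lower (14.9%), where 12.2% and 12.7% of all genes were, and WAT on Day 0 was the shallowest library.

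On Day 4 fewer genes differed than on Day 0. At least 2-fold higher in BAT was 1 gene (*Adam32*, 2.13% of the 47), and 5 were lower (*Mmp2*, *Mmp3*, *Timp2*, *Adamts15*, *Adamtsl2*, 10.6%), where 3.51% and 3.08% of all genes were. On Day 6, 1 gene was higher in BAT (*Adamtsl3*) and 11 were lower, where 1.8% and 4.09% of all genes were. The 11 were *Mmp2*, *Mmp3*, *Mmp12*, *Mmp14*, *Mmp27*, *Adamts5*, *Adamts15*, *Adamtsl2*, *Adam8*, *Adam19* and *Adam33*. The median BAT minus WAT difference was 0.61, -0.18 and -0.38 on Days 0, 4 and 6 for the 47 genes and 0.21, 0.13 and -0.09 for all genes. Scaled to TPM these medians were 1.27, -0.13 and -0.45 for the 47 genes and 0.80, 0.23 and -0.14 for all genes, and with the length trend removed they were 0.32, -0.37 and -0.28 for the 47 genes and -0.03, -0.01 and 0.02 for all genes. The median was thus above 0 on Day 0 and below 0 on Days 4 and 6 under each scaling, while the order of Days 4 and 6 depended on it. *Mmp3* showed the widest gap of Day 6, -2.87, at 8.1 FPKM in BAT and 65.4 FPKM in WAT.

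**Figure D5:**
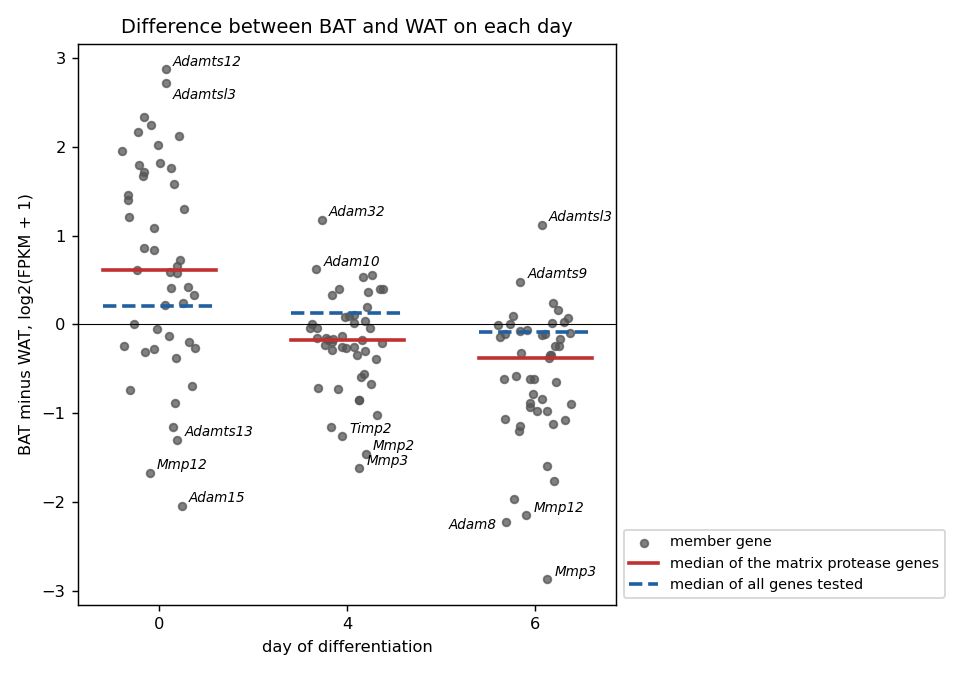
BAT minus WAT on the log2(FPKM + 1) scale on each day for 47 genes, with their median as a solid line and the median of 14413 genes as a dashed line. The median of the 47 genes goes below that of all genes on Days 4 and 6, at -0.18 against 0.13 and -0.38 against -0.09.

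Between Day 4 and Day 6 fewer genes differed by 2-fold in either cell type than between Day 0 and Day 4. They were 12.8% of the 47 in BAT and 21.3% in WAT, where 6.47% and 6.58% of all genes differed. In the limma test 0 of the 47 genes rose and 0 fell, as did 0% of all genes in either direction, with 4 of the 47 and 561 of all genes at an unadjusted p under 0.05. By the 2-fold rule, 4 genes were higher in BAT on Day 6 (*Mmp11*, *Mmp12*, *Timp1*, *Adamtsl3*) and 2 lower (*Adam32*, *Adamtsl2*), where 3% and 3.46% of all genes were. In WAT 9 were higher (*Mmp3*, *Mmp11*, *Mmp12*, *Mmp14*, *Mmp27*, *Adamts1*, *Adamts5*, *Adam8*, *Adam23*) and 1 lower (*Adamtsl2*), where 4.42% and 2.16% of all genes were. After median-ratio scaling or with the length trend removed the WAT counts were 5 higher (10.6%) and 2 lower (4.26%), where 2.59% and 3.19% of all genes were after the scaling and 2.03% and 2.22% with the trend removed. *Mmp11*, *Mmp12* and *Adamtsl2* moved by more than 2-fold in the same direction in both cell types.

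Other genes of the pathway were counted on Days 4 and 6 against Day 0. Their lists were chosen with earlier results of these data known, so the counts only describe the listed genes. Of 33 activators and other inhibitors, 27 passed the minimum, 9 fell and 2 rose, where 10.6% of all genes fell and 11.3% rose. The largest fall was that of *Ctsk*, a collagen-cutting cathepsin, with 498, 17.5 and 17.6 FPKM in BAT and 441, 37.2 and 49.4 FPKM in WAT (-4.04 ± 0.38, limma adjusted p = 0.00208). *Bmp1*, the procollagen C-proteinase that works beside *Adamts2*, fell by 3.53 ± 0.27 (limma adjusted p = 0.00136). *Bsg*, a membrane protein known to induce Mmp production, rose most, with 349, 3040 and 5110 FPKM in BAT and 639, 2950 and 3910 FPKM in WAT (2.95 ± 0.54, limma adjusted p = 0.0134). The general inhibitor *A2m*, at most 0.206 FPKM on Day 0 and 4.59 FPKM on Day 6, rose by 1.85 ± 0.33 (limma adjusted p = 0.0118). *Reck*, a membrane inhibitor of Mmp2, Mmp9 and Mmp14, had 11, 1.51 and 2.21 FPKM in BAT and 2.05, 3.72 and 6.7 FPKM in WAT and did not pass the test (-0.55 ± 0.68, limma adjusted p = 0.59).

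Of 21 matrix substrates, 18 passed the minimum, 9 fell and 0 rose, where 10.6% of all genes fell and 11.3% rose. The other 9 did not pass the test. The largest fall was that of fibrillin-1, *Fbn1*, at 354, 9.19 and 19 FPKM in BAT and 93.8, 11.7 and 19.1 FPKM in WAT (-3.60 ± 0.48, limma adjusted p = 0.00496). Versican, *Vcan*, the substrate of the proteoglycanases, had 36.9, 11.3 and 6.97 FPKM in BAT and 15.4, 19.3 and 13.5 FPKM in WAT (-0.94 ± 0.47, limma adjusted p = 0.203). Of 18 membrane proteins that Adam proteases shed, 15 passed the minimum, 6 fell and 0 rose, beside the same shares of all genes. They were led by the hyaluronan receptor *Cd44* at 48.5, 2.4 and 2.81 FPKM in BAT and 17.6, 2.18 and 4.04 FPKM in WAT (-3.00 ± 0.43, limma adjusted p = 0.00606). *Dlk1*, the preadipocyte factor released by Adam17, had 72.8, 35.9 and 34.3 FPKM in BAT and 58.6, 53 and 38.9 FPKM in WAT (-0.70 ± 0.28, limma adjusted p = 0.125).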

How the data were processed

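RNA-seq of BAT and WAT cells on Days 0, 4 and 6 was analysed, with 1 library per cell type and day. The authors made directional libraries, aligned reads to mm9 with TopHat2 2.0.11 and deposited FPKM per gene from Cufflinks 2.1.1. Table columns named SUB, for the subcutaneous depot, were taken as WAT. Gene starts in the table are 1 lower than in GENCODE M1 and were raised by 1. Depth was estimated from the steps of low FPKM values, by choosing a depth at which many of them came out as whole fragments. They did so for 82.4% to 90.5% (tolerance 0.1), a share that was used in the choice and is no check of it. The p-values measure only the spread between these libraries. Repeated symbols were reduced to their entry of highest mean. The 14413 genes that reached 1 FPKM in some library were analysed as log2(FPKM + 1) with limma 3.58.1 in R 4.3.3, with terms for cell type and day, a variance trend (degrees of freedom 2 residual, 4.26 prior), and a threshold of 0.05 after Benjamini-Hochberg adjustment. The 9 pairs of single libraries were described by a 2-fold rule.

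Members named with all values are each Timp, those past the limma threshold, those at 10 FPKM or more, and those 4-fold apart between BAT and WAT with 3 FPKM or more (32 genes). Others are named as the ends of ranges or in short lists, and *Bmp1*, *A2m*, *Reck*, *Vcan* and *Dlk1* for their roles, all chosen after their values were seen. The members and the gene lists were chosen with earlier results of these data known. Alternatives were pseudocounts of 0.1 or 5, the filter dropped or replaced by mean FPKM 5, scaling to TPM or by median ratios, symbols summed, no variance trend, protein-coding genes alone, a length trend removed (lowess, span 0.3), each library left out, and 1.5-fold and 4-fold rules. The sum of *Timp3* and *Syn3* was added after seeing the data. Methylation and norepinephrine-treated cells were not analysed here.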

Additional observations from a re-analysis of the deposited data

Results flagged for a closer look

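For 6 genes the change since Day 0 had opposite signs in BAT and in WAT on both Day 4 and Day 6. With 1 library per group the difference was not tested. The share of all genes with such signs was not counted, so the 6 are listed as single genes only. The BAT change to Day 6 minus the WAT change was 2.20 on the log2 scale for *Adam15*, -3.71 for *Adamts12*, 1.54 for *Adamts13*, 0.77 for *Mmp15*, -1.80 for *Mmp19* and 0.78 for *Mmp9*. *Adam15* changed by 0.69 in BAT and -1.51 in WAT, *Adamts12* by -2.60 in BAT and 1.11 in WAT, and *Mmp19* by -0.77 in BAT and 1.03 in WAT. *Adamts13*, *Mmp15* and *Mmp9* stayed at 2.85 FPKM or below. The opposite signs were lost after TPM scaling for *Adam15* and *Mmp9*, and with the length trend removed for *Mmp19* and *Mmp9*.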

How the results depend on the processing

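Of the 21 genes called on Days 4 and 6, 5 were called under all 16 alternatives (*Timp1*, *Timp2*, *Mmp11*, *Mmp23*, *Adamts7*), and none of the 21 changed sign under any alternative. With 1 library left out at a time, the count of genes that fell ranged between 5 and 32 (19 with all libraries; 0.992% to 18.6% of all genes), and that of genes that rose between 0 and 2. The 32 and the 18.6% came without WAT on Day 0, and the 2 that rose without BAT on Day 0. In those fits 1 library stands for Day 0 and the residual holds no variation there, so these counts are no bound of robustness. With both Day 0 libraries kept, 5 to 20 genes fell (0.992% to 7.63% of all genes) and 0 or 1 rose. With the main settings 2 genes rose, where 11.3% of all genes did. The genes that rose numbered 1 with a pseudocount of 0.1 (12% of all genes) or 5 (9.95%). They also numbered 1 without the filter (4.07%), with a minimum on mean FPKM of 5 (17.3%) or after TPM scaling (7.58%). With the length trend removed they numbered 4, where 16.9% of all genes rose.

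Counts of genes 2-fold apart depended on the fold and the pseudocount. The shares of all genes in brackets are for the same rule. Under a 4-fold rule 13 were counted for Day 4 against Day 0 in WAT (10.4%), 8 for Day 6 against Day 0 in WAT (8.72%), 1 for Day 6 against Day 4 in BAT (0.805%), 3 for the same in WAT (1.24%), and 8, 0 and 3 for BAT against WAT on Days 0, 4 and 6 (5.54%, 1.18% and 1.08%). Under a 1.5-fold rule the counts were 12 for Day 6 against Day 4 in BAT (21.9%), 19 for the same in WAT (21.3%), and 13 and 23 for BAT against WAT on Days 4 and 6 (22.3% and 16.1%). With a pseudocount of 0.1 they were 16 for Day 6 against Day 4 in WAT (15%), and 11 and 19 for BAT against WAT on Days 4 and 6 (15.2% and 13.3%). With a pseudocount of 5 they were 3 in BAT and 5 in WAT for Day 6 against Day 4 (2.35% and 2.21%), and 15, 3 and 5 for BAT against WAT on Days 0, 4 and 6 (15.9%, 2.04% and 1.84%). The counts for BAT on Day 4 (34) and Day 6 (31) against Day 0 stayed within 1.5 times of these. The labels give no replicate numbers, so no fit with a replicate block was made, and the term for cell type already compares days within a cell type. With 1 library per group, the noise of a single value could not be measured.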
